A study of Mus musculus with 13 samples.

Results

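Annexins are the proteins that bind phospholipid membranes when calcium rises. Each consists of a conserved core of annexin repeats that binds calcium and membrane, and a variable N-terminal tail that binds partners, often S100 proteins. In muscle they are known for their part in the resealing of torn plasma membrane, and outside muscle for roles in inflammation, clotting, endocytosis and exocytosis. Described here are the 9 annexin genes Anxa1, Anxa2, Anxa3, Anxa4, Anxa5, Anxa6, Anxa7, Anxa8 and Anxa11, of 55642 genes in the deposited table and of 12 mouse annexin genes in the annotation. The family was selected on the Anxa1 level in YBX3-depleted against control cells, where it was lower. YBX3 is an RNA-binding protein. The annexin values that compare YBX3 depletion with its control are therefore given as a description with no p-value, and the numbers of annexins that met a call rule are given with nothing read from them. All 9 were among the 16848 genes with enough counts to be tested.

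The RNAseq data came from C2C12 cells, an established mouse skeletal muscle myoblast line, with 13 libraries in 4 groups. Control KD cells received nontargeting siRNAs, and YBX3 KD cells siRNAs to YBX3. Proliferating myoblasts (0 day, growth medium with 10% fetal bovine serum) comprised 4 control KD and 4 YBX3 KD libraries (replicates A to D). Differentiating myoblasts (1 day) comprised 2 control KD libraries (C and D) and 3 YBX3 KD libraries (B to D), and had received medium with 10% horse serum 24 h after transfection. All cells carried a transfected siRNA, and all were harvested 48 h after transfection. Both conditions rest on 1 cell line, and the text of the study does not say which of its YBX3 siRNAs were used for RNAseq. It is not stated that the replicates were separate cultures, so p-values measure the spread between these libraries, which may in part be technical.

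Library totals were 33451547 to 71811371 estimated counts. Abundance is in CPM (counts of a gene in each 1000000 of the library total after TMM scaling). The targeted mRNA, Ybx3, spanned 265 to 347 CPM over the 6 control KD libraries and 28.7 to 71.5 CPM over the 7 with YBX3 KD. Of the markers of myoblasts and early muscle fixed for the cell type, all 6 had counts in each group, with a summed level of 434 to 648 CPM. Most of the sum came from Chrna1, at 224 to 386 CPM, and Cdh15, a cadherin of muscle precursors, at 99.6 to 163 CPM. Myf5 stood at 31.3 to 73.5 CPM and Des at 15.5 to 54.8 CPM. The myogenic factors Myod1 and Myog were low, at 0.601 to 3.32 CPM and 0.0523 to 3.46 CPM. The 6 markers of leukocytes, endothelium, epithelium and adipocytes summed to 0.760 to 1.44 CPM, and 2 of them had no count in any library. At 0 day the summed muscle markers spanned 439.8 to 532 CPM with control KD and 574 to 648 CPM with YBX3 KD, without overlap, and at 1 day 434 to 461 and 450.3 to 549 CPM. The part of this difference in any annexin value was not tested. Libraries of replicate D stood apart: in 21.9% of tested genes replicate D was the highest library of each of the 4 groups, and in 21.3% the lowest.

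The siRNAs matter for reading an siRNA experiment, because bases 2 to 8 of the antisense strand (the seed, in capitals below) can also pair with 3' untranslated regions of other mRNAs. The 4 mouse YBX3 siRNAs are shown so that their seeds can be compared with the annexin mRNAs. The antisense strand listed for siRNA 07 does not pair with its listed sense strand, so its seed is uncertain.

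YBX3 siRNA 05: uAUAGUUGuagggacgucg
YBX3 siRNA 06: aUAGUAGCcgcgucuguac
YBX3 siRNA 07: uCCAUAUCcauuucugacg
YBX3 siRNA 08: aUACUUGCguggguuguuu

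Below is the stretch of the Anxa1 mRNA that would face the whole of siRNA 05, with the bases complementary to the seed in capitals.

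Anxa1 site for YBX3 siRNA 05: actagacatccCAACTATt

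The site lies on the minus strand of GRCm39 at chr19:20351064-20351082. Its first 5 bases precede the 3' untranslated region, and the heptamer CAACTAT takes bases 7 to 13 of that region, which is 286 bases long in the canonical transcript. Over the 19 bases of siRNA 05, 9 could pair with it.

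The heptamer for siRNA 05 was present in the canonical 3' untranslated region of Anxa1 and of no other of the 9 annexins, and in 6.71% of the 12930 tested genes that have such a region (sense strand of the mRNA only). The heptamers GCTACTA (siRNA 06), GATATGG (siRNA 07 as listed) and GCAAGTA (siRNA 08) were in none of the 9, against 4.90%, 5.97% and 6.83% of the tested genes. Any of the 4 listed heptamers was in 1 of the 9 annexins and in 20.4% of the 12930 genes. Read from the listed sense strand instead, the heptamer of siRNA 07 was GAAGACT, present in Anxa7 and in 13.6% of genes. Anxa8 held no heptamer of these YBX3 siRNAs in its 821 bases. A match is a stretch of letters and not a measured site, and its part in the levels below was not tested. These values cover the YBX3 siRNAs alone.

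The annexins of C2C12 myoblasts differed widely in level. Compared per length of the canonical transcript, Anxa2 was the most abundant in control KD, at 869 ± 62.9 CPM per kb (SD, n = 6), and Anxa1 came next, at 382 ± 57.5 CPM per kb. Anxa2 forms a complex with S100a10 at the plasma membrane and binds plasminogen and its activator, whereas Anxa1 is the glucocorticoid-induced, anti-inflammatory annexin that inhibits phospholipase A2 and signals through formyl peptide receptors. The 6 libraries of each of these did not overlap those of the annexin next in order.

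Below them came a group of 4 annexins. Anxa5, the phosphatidylserine-binding annexin used to stain dying cells, was at 129 ± 30.1 CPM per kb (SD, n = 6), and Anxa6, a doubled annexin that gathers at membrane lesions of muscle fibres, at 106 ± 14.2. Anxa3, which has been studied in angiogenesis and in tumours, was at 90.9 ± 7.47 and Anxa4, an annexin of epithelia, at 84.8 ± 19.9. In each of the 3 neighbouring pairs of this group the ranges overlapped and the higher gene led in 4 of 6 libraries, so their order is not separated by the spread between libraries. Anxa7, which promotes the fusion of granules, followed at 51.6 ± 1.85 CPM per kb with no overlap to Anxa4 above or to Anxa8 below. Anxa8, an annexin of late endosomes, at 36.5 ± 5.24, and Anxa11, which tethers RNA granules to lysosomes, at 29.9 ± 1.75, overlapped in range, although Anxa8 was above Anxa11 in 6 of 6 libraries. With the coding length as the denominator Anxa4 moved ahead of Anxa3 and Anxa6, and with the union of annotated exons Anxa6 and Anxa8 followed Anxa1 at ranks 3 and 4. Anxa2 and Anxa1 led on all of these scales. With the union of exons their ranges overlapped, at 250 ± 18.1 and 213 ± 32.0 CPM per kb (SD, n = 6), and Anxa2 was above Anxa1 in 5 of 6 libraries.

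**Figure D1:**
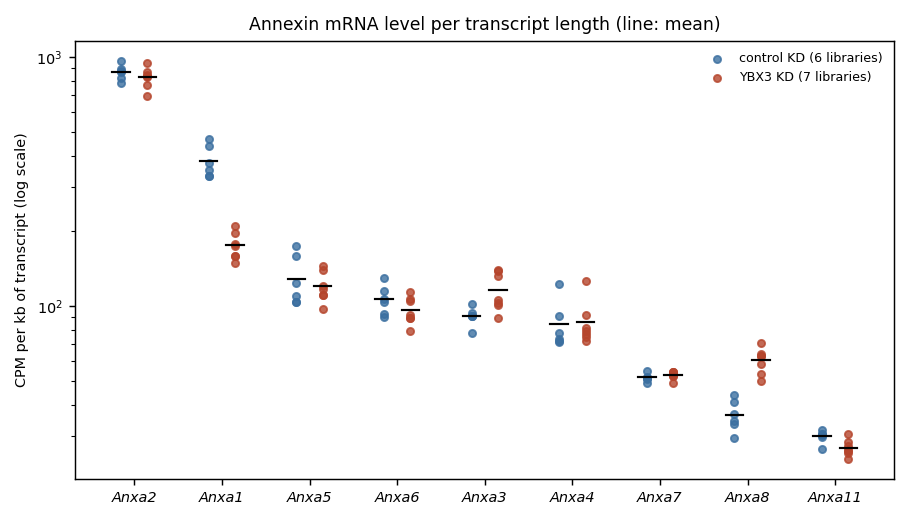
Level of each of the 9 annexins in CPM per kb of canonical transcript (log scale) in the 6 control KD and 7 YBX3 KD libraries, each point a library and each line a group mean, ordered by control KD. Anxa2 and Anxa1 stand above the other 7 in control KD, and in YBX3 KD Anxa1 is lower while Anxa8 is higher than in any control KD library.

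The other 3 annexin genes were scarcely present. Anxa9 stood at 2.21 to 3.90 CPM over the 13 libraries, Anxa13 at 7 to 32 counts per library, and Anxa10 had 2 counts in 1 YBX3 KD library at 0 day and none in the others. Anxa9 and Anxa13 passed the filter on low counts and Anxa10 did not.

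Anxa1 (ENSMUSG00000024659) lies on the minus strand of chromosome 19 from 20350792 to 20368374 and has 13 exons. In control KD at 0 day it was at 580.2, 651, 575 and 814 CPM (replicates A, B, C and D), and in YBX3 KD at 0 day at 276, 309, 259 and 303 CPM. At 1 day it was at 608 and 760.4 CPM in control KD (C and D) and at 277, 363 and 340.1 CPM in YBX3 KD (B, C and D). All 7 YBX3 KD libraries lay below all 6 control KD libraries, at both days, and replicate D was the highest library of both control groups. In RNA from whole cultures, fewer cells with a transcript and less of it per cell cannot be told apart. The mean of control KD was 665 CPM (SD 99.9999, n = 6) and that of YBX3 KD was 304 CPM (SD 37.3, n = 7), or 45.7% of control.

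The log2 difference of Anxa1 between YBX3 KD and control KD was -1.15 (standard error 0.10) over both days, -1.19 (0.13) at 0 day and -1.07 (0.17) at 1 day. Libraries of the same letter and day form 6 pairs, and YBX3 KD held 37.2% of its control in replicate D at 0 day, 59.7% in replicate C at 1 day, and values between these in the other 4 pairs. By log2 fold change Anxa1 stood 67th from the lowest of 16848 genes, while its level put it in the top 2% by abundance (percentile 98.4). As a share of the summed CPM per kb of the 9 annexins, it made up 21.4% ± 2.15 in control KD and 11.2% ± 1.39 in YBX3 KD, and Anxa2 48.9% ± 3.40 and 53.0% ± 2.87.

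**Figure D2:**
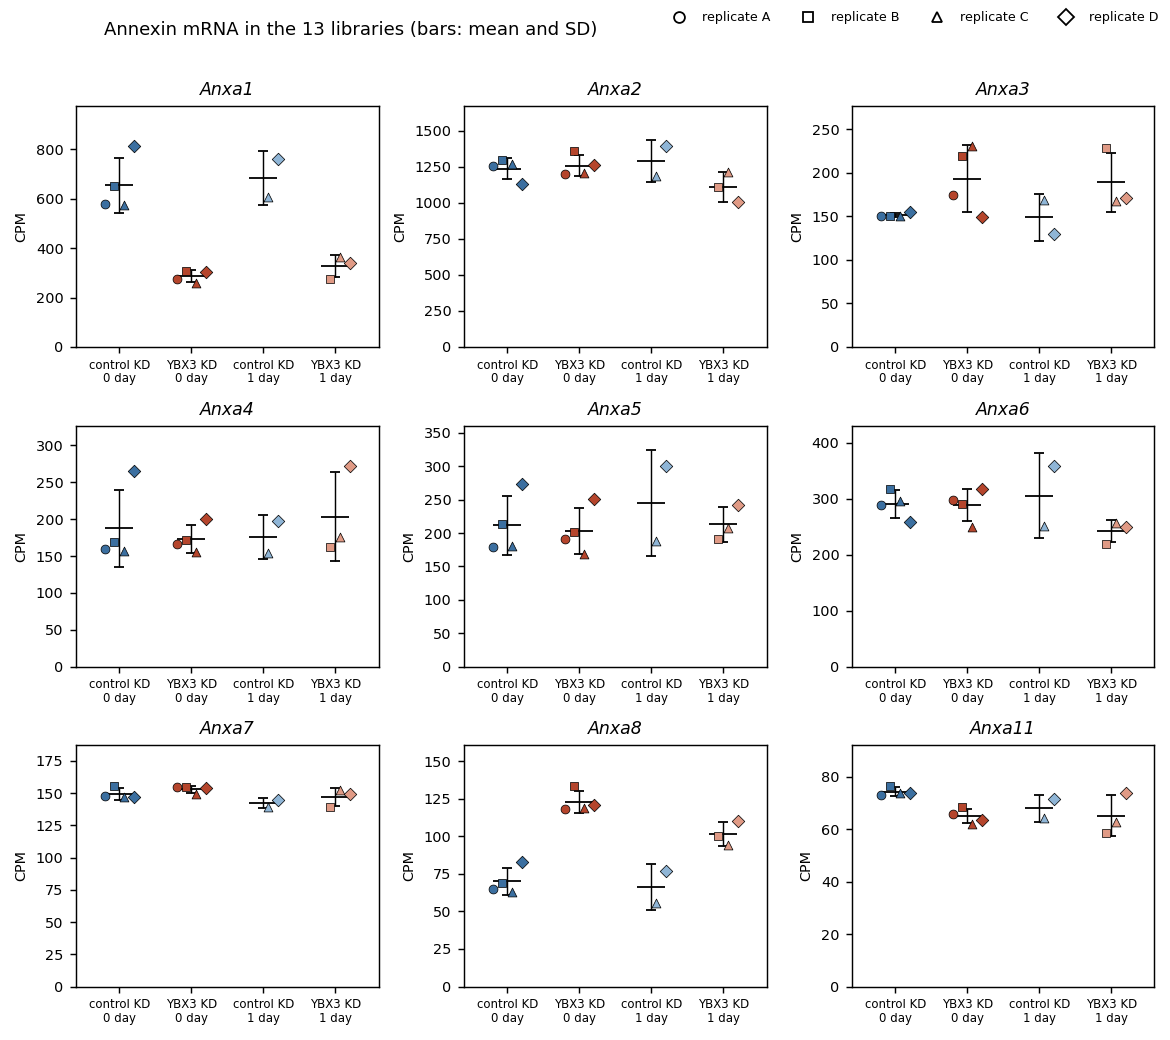
CPM of each annexin in each of the 13 libraries, by group, with the shape of the point giving the replicate letter, and bars the group mean and SD; the vertical axis starts at 0 in each panel and differs between panels. Anxa1 is lower and Anxa8 higher in each YBX3 KD library than in any control KD library, and the diamonds of replicate D lead each group in Anxa4 and Anxa5.

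Anxa8 (ENSMUSG00000021950, chromosome 14, 33807936 to 33822528, plus strand) differed in the other direction. At 0 day it was at 65.2, 69.0, 63.0 and 82.6 CPM in control KD (A, B, C and D) and at 118, 134, 118 and 121 CPM in YBX3 KD. At 1 day it was at 55.4 and 77.2 CPM in control KD (C and D) and at 100.2, 93.9 and 110.0 CPM in YBX3 KD (B, C and D). All 7 YBX3 KD libraries lay above all 6 control KD libraries. Control KD averaged 68.7 CPM (SD 9.87, n = 6) and YBX3 KD 114 CPM (SD 13.4, n = 7), and the log2 difference was 0.74 (standard error 0.09) over both days, 0.81 (0.12) at 0 day and 0.61 (0.15) at 1 day, where it was 0.40 without control KD replicate C and 0.87 without control KD replicate D. In the 6 pairs of the same letter and day, YBX3 KD was at 143% to 194% of control.

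Anxa1 and Anxa8 thus differed from control in opposite directions within the same libraries. The ratio of Anxa1 to Anxa8 in CPM was 8.90 to 10.99 in control KD and 2.19 to 3.87 in YBX3 KD.

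Anxa3 (ENSMUSG00000029484, chromosome 5, 96940544 to 96993828, plus strand) was less uniform. At 0 day control KD was at 150.4, 150.7, 150.5 and 155 CPM (A, B, C and D) and YBX3 KD at 174, 219, 231 and 149 CPM. At 1 day control KD was at 168 and 129.5 CPM (C and D) and YBX3 KD at 228, 168 and 171 CPM (B, C and D). The groups overlapped: 5 of the 7 YBX3 KD libraries exceeded all controls, and those that did not were replicate D at 0 day and replicate C at 1 day. The log2 difference was 0.35 (standard error 0.11) over both days.

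The remaining 6 annexins differed by at most 0.15 on the log2 scale over both days, and YBX3 KD and control KD overlapped in all of them. Anxa11 (chromosome 14, 25842547 to 25887229, plus strand) at 0 day stood at 73.0, 76.7, 74.0 and 73.8 CPM with control KD (A, B, C and D) and at 66.0, 68.4, 62.1 and 63.6 CPM with YBX3 KD. At 1 day it was at 64.3 and 71.7 CPM in control KD (C and D) and at 58.7, 62.9 and 73.9 CPM in YBX3 KD (B, C and D), where the groups overlapped. The antisense gene Anxa11os, which the annotation places within Anxa11, had 1 count over the 13 libraries.

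Anxa2 (chromosome 9, 69360542 to 69399077, plus strand) ranged from 1132 to 1396 CPM in control KD and from 1009.5 to 1363 CPM in YBX3 KD. Anxa6 (chromosome 11, 54869654 to 54924305, minus strand) ranged from 251 to 359 CPM in control KD and from 219.7 to 317 CPM in YBX3 KD. In both, the difference from control was near 0 at 0 day, at 0.02 (standard error 0.08) in Anxa2 and -0.01 (0.12) in Anxa6 on the log2 scale, and negative at 1 day, at -0.22 (0.11) and -0.34 (0.15). These values at 1 day depended on single control KD libraries: without replicate D they were -0.099 in Anxa2 and -0.061 in Anxa6, and without replicate C -0.32 and -0.57. Whether these differed between days is tested below.

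Anxa7 (chromosome 14, 20505328 to 20530201, minus strand) was the steadiest of the 9, from 139 to 156 CPM over all 13 libraries, and its log2 difference was 0.04 (standard error 0.04). Anxa4 (chromosome 6, 86713675 to 86771064, minus strand) and Anxa5 (chromosome 3, 36503072 to 36530126, minus strand) had log2 differences of 0.01 (0.16) and -0.11 (0.14), with the largest standard errors of the family.

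Of the 9 annexins, 1, Anxa1, met the rule for a called gene over both days (absolute fold change above 1.3 and adjusted p under 0.001 in edgeR's quasi-likelihood test), which 0.113% of the tested genes met. With the replicate letter as a block, 2 did, Anxa8 being the second, against 0.137% of genes. At an adjusted p under 0.05 with no fold threshold there were 2, Anxa1 and Anxa8, against 2.34%. The YBX3 KD and control KD libraries did not overlap in 2 of the 9, against 2.03% of the tested genes. At 0 day 0 of the 9 met the first rule (0.0297% of genes) and 2 the second (0.427%), and at 1 day 0 met either (0% and 0.0712%). Since the family was chosen for Anxa1, nothing is read from these counts.

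**Figure D3:**
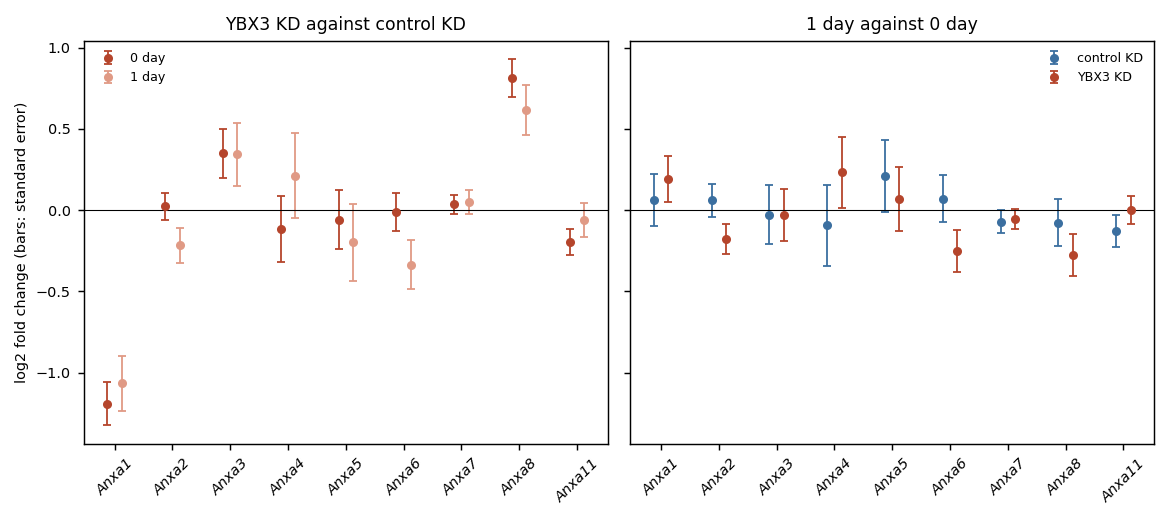
Log2 fold change of each annexin with its standard error. The left panel compares YBX3 KD with control KD at 0 day and at 1 day, and the right panel compares 1 day with 0 day in control KD and in YBX3 KD. Anxa1 and Anxa8 lie farthest from 0 on the left, at both days, and all values on the right lie between -0.28 and 0.23.

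The next question was whether the annexins differed after 1 day of the horse serum medium, which the choice of the family did not use. Myog, a marker of early muscle, averaged 0.387 CPM (n = 4) at 0 day and 0.239 CPM (n = 2) at 1 day in control KD. In YBX3 KD it averaged 0.330 CPM (n = 4) and 1.39 CPM (n = 3), with 3.46 CPM in replicate C at 1 day. Its log2 difference over both siRNAs was 1.07 (standard error 0.86), so a rise in this marker was not detectable. None of the 9 passed in edgeR's quasi-likelihood test of 1 day against 0 day over both siRNAs, at either threshold (0% of the tested genes were called at either). At an unadjusted p under 0.05 there were 0 annexins and 477 genes. DESeq2 called 0 annexins at either threshold, with 1 at an unadjusted p under 0.05, and 2 genes at an adjusted p under 0.05. The log2 differences ran from -0.19 in Anxa8 to 0.13 in Anxa1, with a median of -0.05 beside 0.00 over all tested genes.

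Anxa8 came closest. Its level at 1 day was lower than at 0 day by -0.19 ± 0.09 (SE) on the log2 scale, with an adjusted p of 1.00 in edgeR. Libraries of the same siRNA and letter at both days gave log2 steps of -0.19 and -0.10 in control KD (C and D) and of -0.42, -0.34 and -0.13 in YBX3 KD (B, C and D). It was thus lower at 1 day in 5 of 5 such pairs, which is a description. The share of all tested genes that were lower in 5 of 5 pairs was not counted, so nothing is read from this. A fit without the 4 libraries of replicate D was chosen after seeing the data. There the log2 difference of Anxa8 was -0.31 and its adjusted p in edgeR 0.0470. That met the second rule, an adjusted p under 0.05, but not the threshold of 0.001. In that fit 161 of 17271 genes had an adjusted p under 0.05, against 0 of 16848 with all libraries. Over all 24 fits the adjusted p of Anxa8 ran from 0.0470 to 1.00. Anxa1 gave 0.13 ± 0.10 (SE) on the same scale, with an adjusted p of 1.00 in edgeR, and was higher at 1 day in 3 of 5 pairs.

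Within control KD the 9 differences between the days ran from -0.13 to 0.21 on the log2 scale and within YBX3 KD from -0.28 to 0.23, and 0 annexins passed in either comparison at either threshold (0% of the tested genes in both). At an unadjusted p under 0.05 there were 0 annexins in both, with 242 genes in control KD and 721 in YBX3 KD, and DESeq2 also called 0 annexins in both. In YBX3 KD the lowest values were -0.28 (standard error 0.13) in Anxa8, -0.25 (0.13) in Anxa6 and -0.18 (0.09) in Anxa2, each with an adjusted p of 0.988 in edgeR, where control KD gave -0.08 (0.14), 0.07 (0.14) and 0.06 (0.10). The control KD values rest on 2 libraries at 1 day.

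The YBX3 KD effect was then compared between the days by the interaction of siRNA and day. In edgeR's quasi-likelihood test 0 annexins passed, at either threshold, of 0% of the tested genes, and 0 annexins and 444 genes had an unadjusted p under 0.05. DESeq2 called 0 annexins and 1 gene. For Anxa1 the effect at 1 day minus that at 0 day was 0.13 (standard error 0.22) on the log2 scale, and for Anxa8 -0.20 (0.19). For Anxa2, Anxa6 and Anxa4 the differences were -0.24 (0.14), -0.32 (0.19) and 0.33 (0.33). The adjusted p was 1.00 in this edgeR test for all 9, so a difference between proliferating and differentiating myoblasts was not detectable, with standard errors from 0.09 in Anxa7 to 0.33 in Anxa4. This fit had no term for the replicate letter. With the letter as a block in edgeR, 0 annexins passed at either threshold. In that fit 1859 of 16848 genes had an unadjusted p under 0.05.

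The largest spread within groups followed the replicate letter. In replicate D, Anxa4 stood at 266 CPM (control KD) and 199.8 CPM (YBX3 KD) at 0 day and at 197 and 272 CPM at 1 day, while the other 9 libraries lay between 155 and 176 CPM. Anxa5 in replicate D was at 273, 251, 301 and 242 CPM in the same order, while the other 9 libraries lay between 168 and 214 CPM. Replicate D was thus above all other libraries of the table for both genes. These were 2 of the 9 annexins with replicate D highest in all 4 groups, beside the 21.9% of tested genes given above, and 0 of the 9 had it lowest in all 4.

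Relative to the other replicates of its group, replicate D stood higher in control KD than in YBX3 KD for Anxa1 and Anxa8. This difference was not tested. In Anxa1 replicate D was at 1.35 and 1.25 times the mean of the other control libraries at 0 day and 1 day, and at 1.08 and 1.06 times in YBX3 KD. In Anxa8 the values were 1.26 and 1.39 in control KD and 0.98 and 1.13 in YBX3 KD. For Anxa3 replicate D was below the mean of the others in 3 of 4 groups, at 0.71 to 0.86 times that mean, with 1.03 times in control KD at 0 day. In YBX3 KD at 1 day replicate D, at 171 CPM, lay between the others, at 168 and 228 CPM. The labels do not say what a letter stands for.

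**Figure D4:**
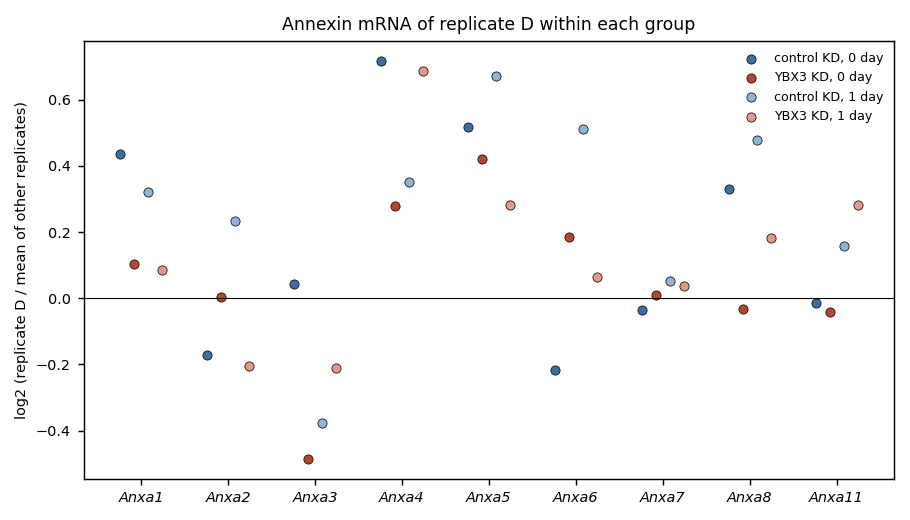
Log2 ratio of replicate D to the mean of the other replicates of its group for each annexin, 1 point per group (control KD at 1 day has 1 other replicate). All 4 points of Anxa4 and of Anxa5 lie above 0, and those of Anxa7 lie closest to 0.

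Partners of the annexins were described from lists chosen with earlier results known. S100a10, the partner of Anxa2, averaged 375 CPM (SD 44.6, n = 6) with control KD and 368 CPM (SD 53.9, n = 7) with YBX3 KD, and S100a11, a partner of Anxa1, 489 CPM (SD 31.9) and 495 CPM (SD 23.4). Their log2 differences were -0.03 (standard error 0.11) and 0.02 (0.06), and edgeR gave them adjusted p-values of 0.913 and 0.899. None of the 6 S100 genes passed in any of the 7 comparisons at either threshold, in edgeR or DESeq2, and 0 had an unadjusted p under 0.05, and over both days 5 were above and 1 below control, with a median log2 difference of 0.05 beside 0.00 over all genes.

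Of 19 genes of plasma membrane repair, among them the dysferlin, caveolin and calpain genes, 18 were tested and 0 passed in any comparison at either threshold in edgeR. DESeq2 called 0 and had 1, Cavin1 of the caveolar coat, at an adjusted p under 0.05 over both days (1179 of 16848 genes) and at 1 day (152 genes). In edgeR 4 were at an unadjusted p under 0.05 over both days, beside 15.6% of the tested genes, and 10 lay above and 8 below control, with a median log2 difference of 0.01. Of 9 genes of signalling and proteolysis, 5 were tested and 0 passed in edgeR, with 2 at an unadjusted p under 0.05 over both days, beside the same 15.6%. DESeq2 called 0 and had 1, Plat, at an adjusted p under 0.05 at 0 day, as had 506 of 16848 genes. The formyl peptide receptor genes Fpr1, Fpr2 and Fpr3, which encode receptors of Anxa1, and Plg, which encodes plasminogen, had 0 counts in all 13 libraries. Plat and Plau, which encode the activators of plasminogen, and Plaur, the receptor of the latter, were expressed. Of the 6 muscle markers 0 met the first rule, and 1, Chrna1, a subunit of the acetylcholine receptor, had an adjusted p of 0.0449 over both days in edgeR, at a log2 difference of 0.37 ± 0.09 (SE), a threshold that 394 of 16848 genes met. In DESeq2 0 met the first rule and 2, Chrna1 and Myod1, the second. Myod1 averaged 1.07 CPM (n = 6) with control KD and 2.34 CPM (n = 7) with YBX3 KD.

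The genes most like Anxa1 across the 13 libraries, by Pearson's r of log2 CPM over 16847 other tested genes, were Rsrc1 (r = 0.978), Cpne3 (0.974), Ilrun (0.968), Ing1 (0.963) and Nbdy (0.963). All 5 were lower in YBX3 KD, as the siRNA difference is shared by any gene with such a pattern, and Cpne3 averaged 127 CPM (SD 5.75, n = 6) with control KD and 75.8 CPM (SD 6.45, n = 7) with YBX3 KD. Copines, like annexins, bind membranes when calcium rises. After the group means were removed, so that only the spread between libraries of a group remained, the leading genes were Frg1 (r = 0.972), Gm5817 (0.971), Galns (0.959), Micu2 (0.954) and Krcc1 (0.952), none of which was among the first 5. On that scale the closest annexins were Anxa5 (0.852), Anxa4 (0.767) and Anxa8 (0.727), and Anxa3 was opposite in sign (-0.47). Anxa5, Anxa4 and Anxa8 stood only at ranks 219, 1093 and 1739 of the 16847 genes, so many other genes were closer to Anxa1. These values share the replicate letters and the library scaling, and are descriptions over 13 libraries.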

How the data were processed

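RNA of 13 libraries of C2C12 cells was sequenced. Salmon (GRCm39, Gencode M30) was used by the authors, who deposited per-gene estimated counts, whole numbers that are not normalized. Symbols, positions, lengths and 3' untranslated regions were those of GENCODE vM39 (also GRCm39), in which 54969 of the 55642 identifiers were found. Low-count genes were dropped with filterByExpr (4 groups), which left 16848, and libraries were scaled by TMM (edgeR 4.0.16, limma 3.58.1, DESeq2 1.42.0, R 4.3.3, Python 3.11.15). Comparisons used edgeR's quasi-likelihood test over all genes with Benjamini-Hochberg adjustment. YBX3 KD and day effects came from a fit with both terms, and other contrasts from a fit with a coefficient per group. The method was tested on simulated counts, drawn independently for each library. They held no effect of the replicate letter, so that test does not cover this feature of the data. The rule for a call was a fold of over 1.3 either way with an adjusted p under 0.001.

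The genes named were the 9 annexins, Anxa9, Anxa10 and Anxa13, Ybx3, S100a10 and S100a11, genes of the partner lists that were called, and the 5 genes most correlated with Anxa1 on each of the 2 scales. Cdh15, Chrna1, Myod1, Myog, Myf5, Des and the other partners were named after their values were seen. The members and lists were chosen with earlier results of these data known. Replicate letters and title numbers disagree at 1 day. Residuals of log2 CPM correlated above 0.1 in 16 of 16 pairs of libraries of the same letter in different groups (0.117 to 0.730, median 0.338). Of 46 other pairs 11 were above 0.1, with a median of -0.15. Removing the group means ties the residuals of a group to each other, so these pairs are not independent. Letters were taken to pair the samples, and the block fits are given where they change a call. Apart from ranges over fits, standard errors and p-values of single genes come from fits with no letter term. With the block in edgeR, 1647 genes in place of 394 had an adjusted p under 0.05 over both days. No 2 libraries of a group were duplicates (chi-square per degree of freedom 17.5 to 250 over 16 pairs). siRNA sequences came from the study's supplementary list; matches of the nontargeting siRNAs are not reported here, so those of the YBX3 siRNAs are not set against them. Protein sequences were not used here.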

Additional observations from a re-analysis of the deposited data

Results flagged for a closer look

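In the groups of 4 libraries, 4 of 18 combinations of annexin and group held a library whose gap to the nearest other library exceeded Dixon's 95% critical share of the range of the group, a limit that chance passes in about 1 in 20 groups. Replicate D of control KD at 0 day was the highest for Anxa4, at 266 CPM, and for Anxa3, at 155 CPM, where the other replicates lay within 150.4 to 150.7 CPM. Replicate B was the highest for Anxa7 in control KD at 0 day, at 156 CPM, and for Anxa8 in YBX3 KD at 0 day, at 134 CPM. For Anxa3, Anxa7 and Anxa8 these gaps were small beside the levels. Without replicate D in all 4 groups, the log2 difference of Anxa4 between 1 day and 0 day was -0.0049 in place of 0.09. No annexin had a YBX3 KD effect that differed between days by the test of the interaction, and in none did all pairs of one group move one way and all pairs of the other group the opposite way. Within a letter the steps between days could be opposite for the siRNAs: in Anxa2 they were -0.09 in control KD and 0.0075 in YBX3 KD in replicate C, and 0.30 and -0.32 in replicate D, so that the direction of the difference changed between the letters. In Anxa6 they were -0.24 and 0.046 in C, and 0.47 and -0.35 in D. The difference between letters was not tested.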

How the results depend on the processing

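The log2 difference of Anxa1 over both days ran from -1.15 to -1.05 over the alternatives and from -1.21 to -1.07 with each library left out; it met the call rule in all 24 fits, which describes the fits and is no support, since the family was chosen on this difference. The number of annexins called over both days was 1, and 2, with Anxa8 added, with DESeq2, with DESeq2 and the replicate block (letter), with limma-voom with sample quality weights, with the replicate block (letter) in edgeR, without all libraries of replicate D, at an adjusted p under 0.05, and without control KD replicate D at 1 day, so that it was 1 to 2 over the 13 fits with a library left out. At 0 day the number, 0, was 2 with DESeq2, with DESeq2 and the block, with limma-voom and at an adjusted p under 0.05, and 1 with no filter. Over all 16848 genes the calls at 0 day were 5, 106 with DESeq2, 251 with DESeq2 and the block and 43 with limma-voom. There were 72 at an adjusted p under 0.05, and 5 of 30314 genes with no filter. At 1 day the number of annexins was 1 with DESeq2 and 2 with DESeq2 and the block, beside 25 and 157 of 16848 genes. In the comparisons of the days and the interaction 0 annexins were called in any fit. The replicate block (letter) in edgeR changed no other call. At an adjusted p under 0.05 over both days, Anxa1 and Anxa8 each passed in 24 of 24 fits. Anxa3 passed in 3 and Anxa11 in 1, from which nothing is read. Of all genes, 394 met that threshold in edgeR with no block, 2951 with DESeq2 and the block and 3088 with limma-voom. Over all genes, the calls over both days were 19, 188 with DESeq2, 424 with DESeq2 and the block, 185 with limma-voom, 23 with the block in edgeR, 9 with the title number as the block and 102 without replicate D. Signs near 0 changed: the YBX3 KD difference over both days was -0.094 to 0.14 for Anxa4 and -0.19 to 0.0016 for Anxa5 with a library left out, and kept its sign in 15 and 20 of 23 alternatives. The day difference of Anxa3 was 0.030 with limma-voom and 0.015 without replicate D, and -0.11 to 0.027 with a library left out. That of Anxa4 was -0.0049 without replicate D and -0.066 to 0.18 with a library left out, and that of Anxa5 -0.0032 to 0.21. The interaction was -0.013 to 0.29 for Anxa1 and -0.40 to 0.057 for Anxa8 with a library left out, and -0.0016 for Anxa4 with limma-voom; that of Anxa6 was -0.54 to -0.048. The step in control KD was -0.058 to 0.16 for Anxa2, -0.21 to 0.29 for Anxa6 and -0.34 to 0.13 for Anxa8. The cause was not tested. The control KD group at 1 day has 2 libraries, and leaving out 1 assumes that the other varies like the rest. Matched on bases 2 to 7 in canonical 3' untranslated regions, the seed of siRNA 05 was in 2 annexins in place of 1, beside 28.7% of genes. Matched on bases 2 to 8 over all annotated 3' untranslated regions it was in 3 annexins, beside 14.9% of genes.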
